A study of Homo sapiens with 4 samples.

Results

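TXNIP, its arrestin-fold relatives and the glucose-sensing transcription factors that drive it were examined in RKO cells, a human colorectal cancer cell line, after knockdown of the chromatin remodeller CHD7. The 7 genes, TXNIP, ARRDC1, ARRDC2, ARRDC3, ARRDC4, MLXIP and MLX, were taken by symbol from a table of 15357 genes, and all 7 were listed and passed the filter on low counts that left 11955 genes for testing. The question was whether TXNIP rises together with its relatives and with the factors that sense glucose. RNA-seq of polyadenylated RNA had been performed on 2 samples of RKO cells infected with a control lentivirus (vector) and 2 samples stably expressing the short hairpin RNA shCHD7_2. All 4 samples were grown in Eagle's Minimum Essential Medium with foetal bovine serum, and no change of glucose is named for either group. Only 1 hairpin was sequenced, so the loss of CHD7 and any other effect of that hairpin cannot be told apart, and nothing in the labels says whether the samples came from separate infections, so the p-values measure the spread between these samples, which may be technical.

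MLXIP encodes MondoA, a transcription factor that is held outside the nucleus until hexose phosphates accumulate and then enters it bound to its partner MLX. The pair binds paired E-box-like sites known as carbohydrate response elements, and TXNIP and ARRDC4 are its best known targets. TXNIP binds reduced thioredoxin and lowers glucose uptake by promoting the removal of glucose transporters from the cell surface, which makes it a feedback brake on glucose entry. The ARRDC proteins and TXNIP together form the alpha-arrestins, adaptors that bring ubiquitin ligases of the NEDD4 family to membrane cargo.

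After CHD7 knockdown TXNIP rose 1.62-fold, and it was the only one of the 7 genes past both thresholds used here (an adjusted p below 0.05 in edgeR's quasi-likelihood test, and 1.5-fold or more). ARRDC4, the other established MondoA target, stood 1.19-fold above the vector samples and MLXIP 1.15-fold, and neither passed the test. ARRDC1, ARRDC2, ARRDC3 and MLX differed between the groups by less than 1.1-fold in either direction. Across all genes tested, 1.51% were called higher and 1.37% lower by the same thresholds. Thus 1 of 7 genes was called higher and 0 were called lower in edgeR, and 2 of the 7 had an unadjusted p under 0.05, against 25.4% of all genes tested. DESeq2 also called 1 of the 7, TXNIP, where 0.778% of all genes were called higher.

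The start regions of the genes were read from RefSeq (GRCh38.p14) because the MondoA and MLX pair acts through short promoter sites. All 7 genes matched, with 10 windows in all, each covering 250 bases before and 50 after an annotated transcription start. The windows were searched on both strands for the E-box CACGTG and for a longer form of the carbohydrate response element, which reads CACGNG, then any 5 bases, then CACGNG again. A match to the longer form can contain an E-box. The 3 windows that held a match are shown 5′ to 3′ on the strand of the gene, in lower case with the match in capitals. They are TXNIP at chr1:145996530-145996829 on the minus strand, ARRDC4 at chr15:97960453-97960752 on the plus strand and MLX at chr17:42566850-42567149 on the plus strand.
TXNIP: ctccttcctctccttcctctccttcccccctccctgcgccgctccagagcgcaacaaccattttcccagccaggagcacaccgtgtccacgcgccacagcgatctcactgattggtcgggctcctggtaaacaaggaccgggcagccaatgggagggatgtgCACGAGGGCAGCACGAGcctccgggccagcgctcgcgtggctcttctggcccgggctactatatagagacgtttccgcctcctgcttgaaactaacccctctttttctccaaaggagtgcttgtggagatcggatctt
ARRDC4: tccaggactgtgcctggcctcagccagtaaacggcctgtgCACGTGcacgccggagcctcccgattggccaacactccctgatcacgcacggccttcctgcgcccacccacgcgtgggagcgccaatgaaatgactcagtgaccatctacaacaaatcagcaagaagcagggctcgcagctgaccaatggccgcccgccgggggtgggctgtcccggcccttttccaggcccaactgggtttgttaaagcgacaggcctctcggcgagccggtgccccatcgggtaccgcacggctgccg
MLX: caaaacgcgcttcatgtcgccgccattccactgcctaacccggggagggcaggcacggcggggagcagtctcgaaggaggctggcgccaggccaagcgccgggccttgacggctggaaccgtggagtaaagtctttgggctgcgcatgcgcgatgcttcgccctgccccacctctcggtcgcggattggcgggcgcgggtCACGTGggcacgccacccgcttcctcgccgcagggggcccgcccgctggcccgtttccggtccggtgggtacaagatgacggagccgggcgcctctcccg

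TXNIP was the only one of the 7 genes whose windows held the longer form. Its match, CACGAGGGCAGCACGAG, lies from 88 to 72 bases before the start, at chr1:145996651-145996667. The longer form, with any letters at its open positions, was present in 20 of 35116 RefSeq windows of this length (0.057%). The E-box was present in 7.26% of all windows and, among the 7 genes, in those of ARRDC4, from 210 to 205 bases before the start, and MLX, from 50 to 45 bases before the start. The windows of ARRDC1, ARRDC2, ARRDC3 and MLXIP held neither set of letters, which says nothing of sites elsewhere in those genes. Paired sites that depart from the letters of the longer form were not searched for, in ARRDC4 or in any other gene.

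Genes with the longer form were called in both directions. A window was found for 9804 of the 11955 genes tested (82.0%), and 16 of these held the form. Of the 16, TXNIP was called higher and GFPT1, which encodes the first enzyme of hexosamine synthesis, was called lower, with a log2 fold change of -0.74. Of the 9788 genes without the form, 1.46% were called higher and 1.21% lower. The median log2 fold change of the 16 genes was 0.025, against 0.001 for those without it. Of the others, RCN3 had a log2 fold change of 0.65 and did not pass (adjusted p = 0.1, edgeR). KCTD5, at 0.53 (adjusted p = 0.00014, edgeR), and STX12, at 0.29 (0.0284), lay above the vector level. P4HA1, a subunit of the collagen prolyl hydroxylase, at -0.54 (adjusted p = 0.00018, edgeR), and MTHFS, at -0.52 (0.0244), lay below it. Of the 16, TXNIP, GFPT1, KCTD5, STX12, P4HA1 and MTHFS thus passed an adjusted p of 0.05 in edgeR, in both directions, against 11.5% of all genes tested. Whether the form goes with a change was not tested. KCTD5, STX12, P4HA1 and MTHFS missed the fold threshold. These genes and GFPT1 were named after their values were seen. Among 1274 tested genes with an E-box in a window, 1.18% were called higher and 1.33% lower, against 1.51% and 1.2% of the 8530 without one.

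The libraries were of like depth, with totals of 15734679 to 16068650 estimated counts. CHD7 fell to 0.599 of its vector level (95% interval 0.528 to 0.68), from 85.4 and 91.0 CPM in the vector samples to 55.5 and 50.1 CPM in the shCHD7_2 samples. Of the epithelial markers, KRT18, KRT8 and EPCAM were above 1 FPKM on average and CDH1 was at 0.01 FPKM or below in every sample. KRT19 was not listed under that symbol. Of the intestinal markers, CDX2 was at 4.58 to 5.89 FPKM and CDH17 and LGR5 were at 0.02 FPKM or below. CDX1 and VIL1 were not listed under those symbols. Of 6 fibroblast markers, the 2 analysed summed to 0.10 FPKM at most. Of 4 leukocyte markers 2 were analysed, of which CD79A was at 0.34 FPKM or below and CD68, a lysosomal protein of many cell types, was at 495 to 530 FPKM in the vector samples and 602 to 611 FPKM in the shCHD7_2 samples (adjusted p = 0.0624, edgeR).

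On the FPKM scale, which corrects for gene length and so allows genes to be compared, the 7 genes held the same order in both groups. MLX was the highest, with 56.9 ± 1.67 FPKM in the vector samples and 62.4 ± 0.495 FPKM in the shCHD7_2 samples (SD, n = 2). It was followed by ARRDC1, ARRDC3, MLXIP, TXNIP, ARRDC2 and ARRDC4. ARRDC4 was the lowest, with 1.77 ± 0.113 FPKM and 2.18 ± 0.0849 FPKM (SD, n = 2). No neighbours in this order had overlapping samples within a group, but the closest pairs changed. In the vector samples TXNIP, at 8.76 and 9.34 FPKM, lay just above ARRDC2, at 7.63 and 8.01 FPKM. In the shCHD7_2 samples TXNIP, at 15.4 and 14.8 FPKM, lay just below MLXIP, at 16.7 and 16.3 FPKM. The mean level of TXNIP exceeded that of 53.4% of all listed genes in the vector samples and of 64.9% in the shCHD7_2 samples.

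**Figure D1:**
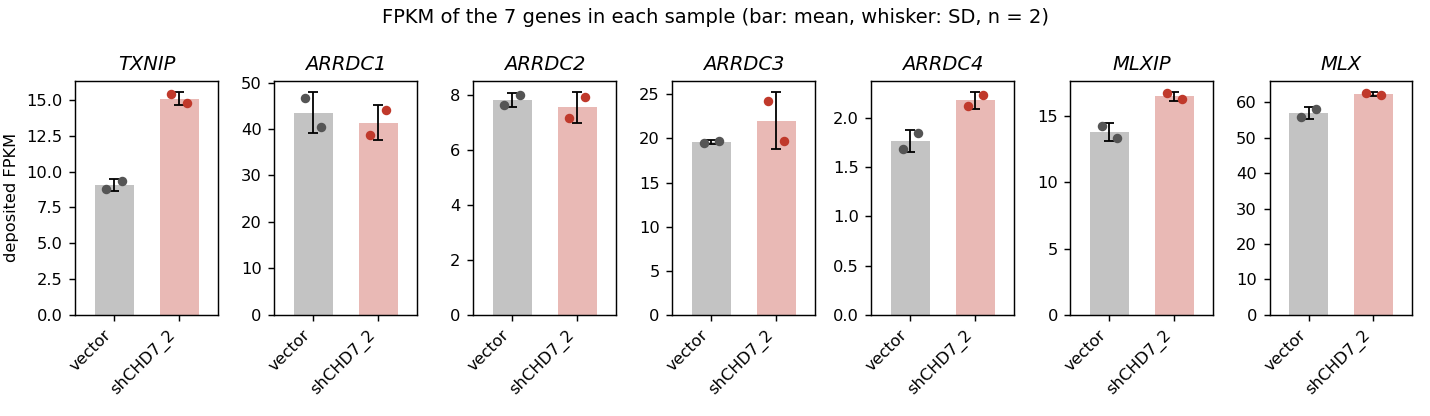
Deposited FPKM (vertical axis, each panel on its own scale from 0) of the 7 genes in the 2 vector samples (grey) and the 2 shCHD7_2 samples (red); bars are means, whiskers the SD over n = 2, points the samples. The TXNIP samples are well separated between the groups, at 8.76 and 9.34 against 15.4 and 14.8 FPKM, while those of ARRDC1, ARRDC2 and ARRDC3 overlap.

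MondoA and MLX, the sensing pair, were considered first. MLXIP, on chromosome 12 from 122078756 to 122147344 (RefSeq, GRCh38.p14), had 118.8 and 111.2 CPM in the vector samples and 132.7 and 131.0 CPM in the shCHD7_2 samples, where CPM is the estimated count scaled to library size by TMM. Both shCHD7_2 samples lay above both vector samples. The log2 fold change was 0.20 (standard error 0.079), and the adjusted p of 0.116 from edgeR's quasi-likelihood test did not pass. The 95% interval of the fold change ran from 1.02 to 1.28, below 1.5-fold throughout. MLX, on chromosome 17 from 42567100 to 42573203, had 126.0 and 131.5 CPM in the vector samples and 137.1 and 136.8 CPM in the shCHD7_2 samples. The groups did not overlap here either, but its log2 fold change of 0.09 had a standard error of 0.078 (adjusted p = 0.515, edgeR) and the 95% interval of the fold change lay between 0.951 and 1.19. MLX was the only one of the 7 genes whose deposited counts included fractions, which arise where RSEM splits ambiguous reads among genes.

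TXNIP, on chromosome 1 from 145992435 to 145996579, had 383 and 419 estimated counts in the vector samples and 677 and 652 in the shCHD7_2 samples. These corresponded to 24.7 and 26.5 CPM against 42.2 and 40.9 CPM. The 2 samples of each group lay close together and the groups were far apart, with means of 25.6 ± 1.32 CPM and 41.5 ± 0.961 CPM (SD, n = 2). This is a log2 fold change of 0.70 with a standard error of 0.096, and it passed edgeR's quasi-likelihood test (adjusted p = 3.1e-05). The 95% interval of the fold change, 1.41 to 1.86, included 1.5. By log2 fold change TXNIP ranked 229 of the 11955 genes, above 98.1% of them. An exact permutation test of 2 samples against 2 reaches a two-sided p of 0.333 at best, so every gene was judged by the fit across all genes. Without a filter on low FPKM, limma on log2(FPKM + 1) no longer called TXNIP (adjusted p = 0.0637, log2 difference 0.68).

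ARRDC4, on chromosome 15 from 97960703 to 97973833, was the nearest to TXNIP in direction but was sparsely counted. It had 104 and 116 estimated counts in the vector samples and 130 and 138 in the shCHD7_2 samples, or 6.70 and 7.35 against 8.11 and 8.65 CPM. Both shCHD7_2 samples lay above both vector samples. The log2 fold change of 0.25 (standard error 0.16) did not pass (adjusted p = 0.341, edgeR). Its 95% interval ran from a fold change of 0.948 to 1.5, so that neither no change nor a rise almost as large as that of TXNIP lay outside it. At this depth counting alone gives a coefficient of variation of 8.51% to 9.81% per sample for ARRDC4, and of 3.84% to 5.11% for TXNIP.

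The 3 remaining alpha-arrestins showed no difference beyond the spread between samples. ARRDC3, an adaptor for the beta-2 adrenergic receptor on chromosome 5 from 91368631 to 91383317, had 81.7 and 83.2 CPM in the vector samples and 98.7 and 80.8 CPM in the shCHD7_2 samples. Replicate 1 of shCHD7_2 stood above the other 3 samples, and replicate 2 lay below both vector samples. Its log2 fold change of 0.12 did not pass (standard error 0.093, adjusted p = 0.44 in edgeR), and without replicate 1 of shCHD7_2 it was -0.033. In RefSeq the antisense transcript ARRDC3-AS1 overlaps the start of ARRDC3. Whether reads were counted by strand is not given in the sources used here, so reads of both may be joined.

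ARRDC1, on chromosome 9 from 137605686 to 137615360, is known for driving the release of small vesicles from the plasma membrane. It had 79.4 and 68.4 CPM in the vector samples and 62.9 and 73.2 CPM in the shCHD7_2 samples, with overlapping groups and a log2 fold change of -0.12 ± 0.096 (SE, n = 2 per group; adjusted p = 0.471 from edgeR's fit). ARRDC2, on chromosome 19 from 18001124 to 18014102, had 18.3 and 19.3 CPM against 16.6 and 18.6 CPM, again overlapping, with a log2 fold change of -0.093 ± 0.12 (SE, n = 2 per group; adjusted p = 0.675 from edgeR's fit). The 95% intervals of the fold change, 0.802 to 1.06 for ARRDC1 and 0.791 to 1.11 for ARRDC2, both lay below the interval of TXNIP.

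In 4 of the 7 genes, TXNIP, ARRDC4, MLXIP and MLX, both shCHD7_2 samples lay above both vector samples, and in 0 of the 7 did both lie below. The first held for 26.4% of all genes tested and the second for 27.3%. The median log2 fold change of the 7 genes was 0.12, against 0.001 over all genes tested.

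**Figure D2:**
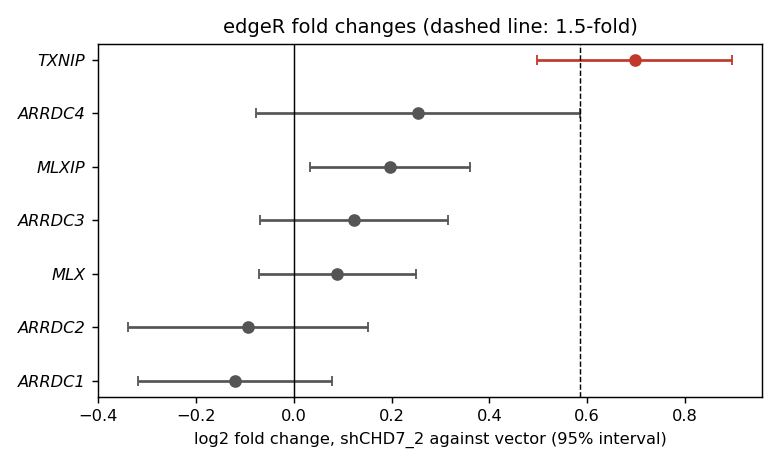
Log2 fold change of shCHD7_2 against vector (horizontal axis) for the 7 genes (rows), from edgeR with 95% intervals; the dashed line marks a fold change of 1.5 and red marks the called gene. TXNIP, at 0.70, is the only point beyond the dashed line, and ARRDC4, at 0.25, has the widest interval.

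The rise of TXNIP was larger than the difference at 5 of the other 6 genes, and against ARRDC4 this could not be settled. The difference in log2 fold change between TXNIP and each other gene was computed with the errors of the pair taken as independent, and the intervals are 95% intervals widened for 6 pairs by Bonferroni's method. Against ARRDC4 it was 0.44 (-0.10 to 0.98), an interval that included 0. Against MLXIP it was 0.50 (0.14 to 0.86), against ARRDC3 0.57 (0.19 to 0.96), against MLX 0.61 (0.25 to 0.97), against ARRDC2 0.79 (0.35 to 1.23) and against ARRDC1 0.82 (0.42 to 1.21). These 5 intervals lay above 0. TXNIP was the reference of every pair, and the members were chosen with earlier results of these data known. Bonferroni's method does not correct for that choice, so the intervals may overstate the differences. For the single pair of TXNIP and ARRDC4, without that widening, the 95% interval was 0.057 to 0.83.

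Ratios of estimated counts within a library do not depend on the scaling of libraries. There were 3.68 and 3.61 TXNIP counts per ARRDC4 count in the vector samples and 5.21 and 4.72 in the shCHD7_2 samples. Per MLXIP count there were 0.208 and 0.239 TXNIP counts in the vector samples and 0.318 and 0.312 in the shCHD7_2 samples. Both ratios were higher in both shCHD7_2 samples, and so were those of TXNIP to each of the other 4 genes. TXNIP is the numerator of every ratio, and 98.1% of all genes tested had a smaller log2 fold change than TXNIP. A higher ratio would thus be found against most genes, and the ratios are not separate results about these relatives.

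The genes whose profile over the 4 samples was most like that of TXNIP came from outside the family. Likeness was the Euclidean distance between log2 CPM values, each gene centred on its own mean. The nearest was MAPRE2, a microtubule end-binding protein, at a distance of 0.043, with 24.1 and 25.5 CPM in the vector samples and 42.3 and 39.7 CPM in the shCHD7_2 samples. It was followed by CCDC90B at 0.0459, CEL, a lipase, at 0.0582, C8orf44 at 0.0622 and DUSP6, a phosphatase of ERK kinases, at 0.0662. MAPRE2, CCDC90B and DUSP6 were also called higher, whereas CEL, at 1.13 CPM or below in every sample, and C8orf44 were not. ARRDC4 was the nearest member, at a distance of 0.456 with 861 genes closer to TXNIP, and MLXIP was next, at 0.519 with 1476 genes closer. With 4 samples, likeness rests mainly on the fold change, so the nearest genes share the rise of TXNIP by the way they were picked. The ranks of the members rest on the fold changes in the same way.

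Other genes around the family were read from 8 lists written from general knowledge. They held 52 distinct genes that were tested. None of these passed both thresholds in edgeR, where 2.88% of all genes tested did, or in DESeq2, where 1.85% did. At an adjusted p under 0.05 in edgeR without the fold threshold, 5 of the 52 passed (9.62%), which is no more than the 11.5% of all genes, so the 5 are given as single genes and not as a result about the lists. How often each of the 5 kept an adjusted p under 0.05 was counted over 13 other settings. An unadjusted p under 0.05 was found for 25.4% of all genes tested, the share to set beside the counts below.

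Of these 5, 2 belonged to the thioredoxin system that TXNIP restrains. TXNRD1, the cytosolic thioredoxin reductase, rose from 77.0 and 82.4 FPKM to 112.4 and 101.0 FPKM, which is 0.38 ± 0.076 (SE) on the log2 scale (adjusted p = 0.00177, edgeR). It passed in 10 of 13 other settings, and not without vector replicate 1 (adjusted p = 0.077, edgeR). PRDX3, the mitochondrial peroxiredoxin, also rose, from 124.6 and 127.6 FPKM to 157.5 and 160.6 FPKM, a log2 fold change of 0.29 (adjusted p = 0.0107, edgeR). This held in 8 of 13 other settings and was lost with the replicate block (adjusted p = 0.103, edgeR) and without vector replicate 1 (0.172) or vector replicate 2 (0.132). TXN, the thioredoxin that TXNIP binds, was at 541 and 565 FPKM in the vector samples and 528 and 598 FPKM in the shCHD7_2 samples, with overlapping groups. TXNRD3 had a log2 fold change of -0.39 (adjusted p = 0.115, edgeR). In all, 2 of the 9 genes of this list passed as higher, PRDX3 with the losses given above, and 0 as lower. An unadjusted p under 0.05 was found for 4 of the 9, against 25.4% of all genes tested. The median log2 fold change was 0.087.

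Among the NEDD4-family ligases, which alpha-arrestins recruit, SMURF2 had the smallest p. SMURF2 fell from 183.1 and 189.3 FPKM to 139.3 and 124.0 FPKM, which is -0.48 ± 0.072 (SE) on the log2 scale (adjusted p = 7e-05, edgeR). It passed in 12 of 13 other settings. WWP2 was at 16.16 and 14.96 FPKM in the vector samples and 20.2 and 19.5 FPKM in the shCHD7_2 samples, a log2 fold change of 0.29 (adjusted p = 0.0328, edgeR). That p passed in only 5 of 13 other settings, and neither in DESeq2 (adjusted p = 0.0786), nor with the replicate block (adjusted p = 0.185, edgeR), nor in any of the 4 fits that left out 1 sample (0.0502 to 0.45). ITCH, the ligase best known for marking TXNIP for degradation, had a log2 fold change of -0.052, and NEDD4 one of -0.25 (adjusted p = 0.0835, edgeR). HECW1, at 0.59 FPKM or below in every sample, had the highest value of the list, 0.51 on the log2 scale (adjusted p = 0.175, edgeR), and was named after its values were seen. Of 9 ligases 8 were tested, 5 of which had an unadjusted p under 0.05, against 25.4% of all genes tested. Of these 5, 3 lay above the vector level and 2 below, and the median log2 fold change of the 8 was 0.023.

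The other reported glucose-responsive targets of MondoA or its relative ChREBP were split in direction. FASN, the fatty acid synthase, was at 41.2 and 36.0 FPKM in the vector samples and 46.8 and 48.1 FPKM in the shCHD7_2 samples, a log2 fold change of 0.25 (adjusted p = 0.0332, edgeR). That p passed in 7 of 13 other settings, and not with the replicate block (adjusted p = 0.141, edgeR). In edgeR without vector replicate 2 the log2 fold change was 0.16 (adjusted p = 0.573), without vector replicate 1 it was 0.35 (0.0506) and without shCHD7_2 replicate 2 it was 0.23 (0.0522). HK2, the inducible hexokinase, had a log2 fold change of -0.21 (adjusted p = 0.0649, edgeR), and KLF10 also one of -0.21 (adjusted p = 0.114, edgeR). Both shCHD7_2 samples lay below both vector samples for 4 of the 8 genes tested, HK2 and KLF10 among them, and above both for the other 4. Over all genes tested, 27.3% lay below and 26.4% above in this way. Of the 8 genes tested FASN alone had an adjusted p under 0.05 in edgeR. An unadjusted p under 0.05 was found for 3, against 25.4% of all genes tested. Of the 8, 4 had a log2 fold change above 0 and 4 below, and the median was -0.047.

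The list of MLX partners held MXD1, MXD4, MNT and MLXIPL and also MAX, which is not a partner of MLX but the parallel hub of the MYC network. MXD1 had a log2 fold change of -0.17 (adjusted p = 0.231, edgeR), MLXIPL, which encodes ChREBP, one of 0.37 (adjusted p = 0.401, edgeR) and MAX one of 0.18 (adjusted p = 0.202, edgeR). MLXIPL was at 0.87 FPKM or below in every sample, with 28 to 42 estimated counts, whereas MLXIP was at 13.3 FPKM or above. None of these 5 genes passed an adjusted p of 0.05 in edgeR, and 0 of them had an unadjusted p under 0.05.

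None of the 11 glucose uptake and phosphorylation genes tested passed an adjusted p of 0.05 in edgeR. Of these, 8 had a log2 fold change below 0, as did 49.9% of all genes tested, and the median was -0.15. An unadjusted p under 0.05 was found for 4 of the 11, against 25.4% of all genes tested. The largest value was that of SLC2A4, a glucose transporter named after its values were seen, at 0.61 on the log2 scale (adjusted p = 0.194, edgeR) with 23 to 45 estimated counts. HK1 and PFKM, which encode a hexokinase and a phosphofructokinase, both had a log2 fold change of -0.19 (adjusted p = 0.0991 and 0.0984, edgeR). SLC2A1, the glucose transporter that TXNIP helps remove from the surface, was at 45.3 and 42.9 FPKM against 42.6 and 44.2 FPKM, with overlapping groups.

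The AMPK kinase phosphorylates TXNIP and marks it for degradation. The RNA of its subunits showed no change that passed the test. RNA levels do not measure the phosphorylation or activity of AMPK. The study's authors report by Western blot that AMPK phosphorylation rose in RKO cells after CHD7 knockdown. Of 7 subunits and upstream kinases tested, 6 had a log2 fold change below 0, with a median of -0.033, and 1 had an unadjusted p under 0.05. PRKAA1, a catalytic subunit, had the lowest adjusted p (log2 fold change -0.18, adjusted p = 0.161, edgeR), followed by PRKAG1 at -0.13 and PRKAB1 at -0.18. Of the other arrestins, ARRB1 had a log2 fold change of 0.13 and ARRB2 one of -0.13, with adjusted p of 0.409 and 0.298 in edgeR and 0 of the 2 at an unadjusted p under 0.05. Of the 4 arrestin cargo genes tested, INSR, the insulin receptor, was at 0.21 (adjusted p = 0.155, edgeR), NOTCH1 at 0.12 and TFRC, the transferrin receptor, at 0.09 on the log2 scale, and 1 had an unadjusted p under 0.05.

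**Figure D3:**
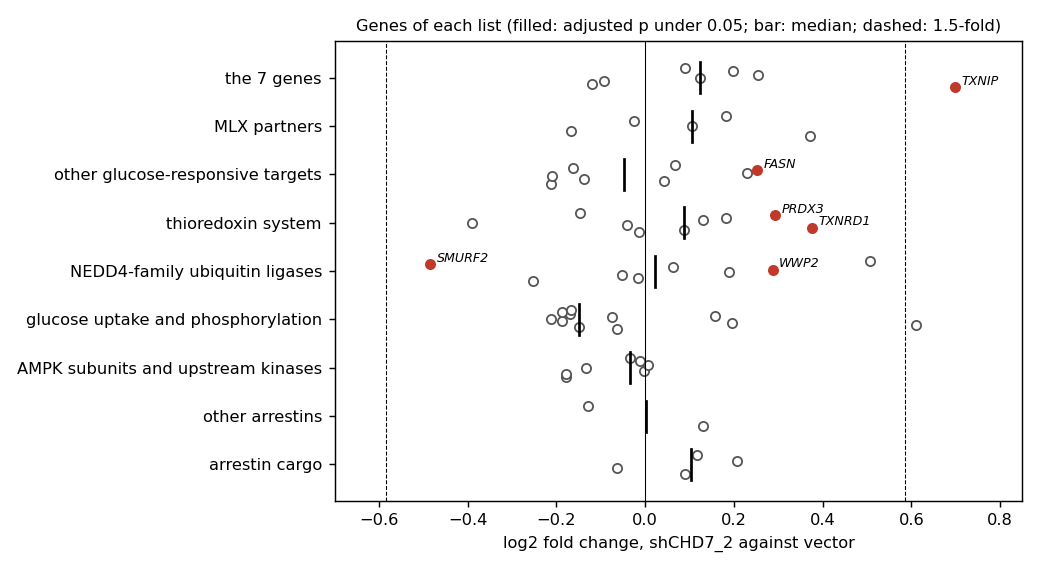
Log2 fold change of shCHD7_2 against vector (horizontal axis) for the tested genes of each list (rows; points are genes, bars medians, filled red an adjusted p under 0.05, dashed lines a fold change of 1.5). Outside the 7 genes, FASN, PRDX3, TXNRD1, SMURF2 and WWP2 are filled and all lie within the dashed lines.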

How the data were processed

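RNA-seq of 2 vector and 2 shCHD7_2 samples of RKO cells was analysed from the deposited tables. The authors deposited estimated counts (expected counts) for 15357 genes, without normalization, and FPKM values, which the authors had scaled for gene length and depth. Per the labels, the submitters' processing notes name hg38, Bowtie2, RSEM and DESeq2; versions, annotation, strand setting and filters are not given in the sources used here. RSEM divides reads that match several genes, so genes with close copies are less certain.

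Estimated counts were rounded. In R 4.3.3 with edgeR 4.0.16, genes were filtered with filterByExpr, scaled by TMM and tested by quasi-likelihood, with p adjusted by Benjamini-Hochberg over 11955 genes. Standard errors and intervals derive from the F statistic. The common biological coefficient of variation was 0.0579. Alternatives used DESeq2 1.42.0 and limma 3.58.1 (log2 FPKM, pseudocount 1 or 0.1), and the promoter search and plots Python 3.11.15. In simulated counts for this comparison over 11893 genes, edgeR recovered 93.5% of 199 genes changed by 1 on the log2 scale, with 2 wrong calls. The simulation gave every gene the same dispersion. Smaller changes, such as those of TXNIP and ARRDC4, were not simulated.

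The members and lists were chosen with earlier results of these data known. Named genes were the 7 members, CHD7, the 5 genes nearest to TXNIP and, per list, called genes and the 3 with the smallest p. Counts of samples within a group differed by more than sampling noise (chi-square per gene 3.86 and 5.86), so each was kept as a library.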

Additional observations from a re-analysis of the deposited data

How the results depend on the processing

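Of the 14 alternatives, that without a fold threshold is the main fit under a looser rule, so no called gene could change there. TXNIP kept its direction in all 14 and its call in 13. Its log2 fold change ran from 0.65 to 0.75 in the fits that each left out 1 sample, with the lone sample assumed to vary like the other group, and it was 0.68 (adjusted p = 0.0637, limma) on log2(FPKM + 1) without a filter on low values, where 0 of the 7 genes were called. The setting tests many more genes of low level; the cause was not tested. In none of the 14 alternatives was another of the 7 genes called. Without replicate 1 of shCHD7_2, ARRDC3 was at -0.033 and TFRC at -0.022, and without replicate 2 of shCHD7_2 they were at 0.26 and 0.19. The fits without 1 sample called between 308 and 380 genes.

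The number of genes called was 344. It was 221 in DESeq2, 141 without a filter on low counts, 172 in limma on log2(FPKM + 1) over genes averaging 1 FPKM or more, 23 over all listed genes and 1373 without a fold threshold. Same-numbered samples of the groups did not deviate together (correlation of deviations -0.198 across genes). A replicate block gave 329 called genes, TXNIP was at 0.70 and no call among the 7 genes changed. Crossing the pairing, a setting chosen after seeing the data, called 423 genes, and 1 of the 7. ARRDC4 and MLXIPL had few reads, with 104 to 138 and 28 to 42 estimated counts per sample. Whether depth kept them from being called was not tested. CHD7 kept its direction in all 14 alternatives and was past both thresholds in 11, with log2 fold changes of -0.51 and -0.58 in the limma fits, where it missed the fold threshold or the test.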
